A study of Mus musculus with 34 samples.

Results

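Toll-like receptor 4 (TLR4) and the proteins that carry its signal to the first kinases were followed in hematopoietic stem cells (HSCs) with and without Ythdf2. The 10 genes were taken by name from the deposited count table of 13108 gene rows, and all 10 were found: Tlr4, Cd14, Ly96, Myd88, Tirap, Ticam1, Irak4, Irak1, Traf6 and Map3k7. They are the receptor complex, the adaptors and the proximal kinases of a single pathway. The rule for their choice used names and no measured value, but earlier results of these data were known when it was made.

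TLR4 is the sensor of bacterial lipopolysaccharide (LPS). CD14 passes LPS to MD-2, the product of Ly96, which sits on the outer face of TLR4. At the plasma membrane the receptor recruits TIRAP and MyD88, MyD88 gathers the kinases IRAK4 and IRAK1, and the ubiquitin ligase TRAF6 then activates the kinase TAK1, the product of Map3k7, ahead of NF-kappaB and the MAP kinases. From endosomes the receptor signals through TRIF, the product of Ticam1, toward IRF3 and type I interferon. Blood-forming stem and progenitor cells are known to carry TLR4 and to turn to myeloid output when LPS reaches them.

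The study asked what loss of YTHDF2, a reader protein that binds m6A-modified mRNAs and promotes their decay, does to HSCs as mice age. All mice were C57BL/6. Ythdf2 CKO mice carried Ythdf2 fl/fl and Vav-iCre, which deletes the floxed second exon in hematopoietic cells, and Ythdf2 CTL mice carried Ythdf2 fl/fl without the recombinase, so both groups had the floxed allele that fuses GFP to YTHDF2. Young mice were 8 to 12 wk old, with 4 Ythdf2 CTL and 4 Ythdf2 CKO animals, and aged mice were 1 yr old, with 4 Ythdf2 CTL and 5 Ythdf2 CKO animals. Samples of 100 LSK CD48-CD150+ cells were sorted and 2 SMART-Seq2 libraries were made per mouse. The mouse was the replicate, and the counts of its libraries were summed. Levels are given as CPM, counts scaled to a common library size by the TMM method over the 17 mice, with the mean and SD over mice.

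Depth per mouse was 2218618 to 10125624 counts, and 3 counts in a mouse equal 0.292 to 1.24 CPM, a floor that covers counting error only because the reads carry no molecular identifiers. Ythdf2 itself was lower in young Ythdf2 CKO mice, with 50.3 to 60.3 CPM against 93.4 to 123 CPM, and the log2 fold change was -0.95 with an SE of 0.174 (adjusted p = 0.0406). That call held in 1 of the 8 fits that left out a mouse, the fit without young Ythdf2 CKO mouse 3, with estimates between -1.01 and -0.87. In aged mice 2 animals went against their labels. The mouse labelled Ythdf2 CKO 121 had 188 CPM, the highest value of all 17, and the mouse labelled Ythdf2 CTL 124 had 70.5 CPM, which lies below every aged mouse labelled Ythdf2 CKO. With them the log2 fold change of Ythdf2 in aged mice was -0.48 (SE 0.326, adjusted p = 0.661) and without them -1.06 (adjusted p = 0.0212), and genotype differences in aged mice are also given without these animals where the estimate turned or moved by over 1.5 times. Of 10 HSC markers, among them Kit, Procr, Hlf and Mecom, 10 were detected in every mouse, and their summed level was 1288 to 1571 CPM in young Ythdf2 CTL, 1688 to 2072 in young Ythdf2 CKO, 1360 to 2632 in aged Ythdf2 CTL and 1767 to 2321 in aged Ythdf2 CKO mice. Ly6a of that list, which encodes Sca-1, was called higher in young Ythdf2 CKO mice (log2 fold change 1.2, SE 0.195, adjusted p = 0.0201). Of 10 monocyte and macrophage markers, 8 were at 0 in at least 1 mouse, including Csf1r and Ccr2, while Lyz2 and Cd68 were detected in every mouse. The summed level of that list was 765 to 844 CPM in young Ythdf2 CTL, 784 to 947 in young Ythdf2 CKO, 394 to 739 in aged Ythdf2 CTL and 489 to 798 in aged Ythdf2 CKO mice, and Cd68 alone had means of 49.0 against 22.5 CPM in young and 36.3 against 11.9 CPM in aged Ythdf2 CKO and CTL mice (adjusted p = 0.101 and 0.332). Of 7 megakaryocyte and platelet markers in the table, 7 were detected in every mouse, and their summed level was 538 to 914 CPM in young Ythdf2 CTL, 1059 to 3283 in young Ythdf2 CKO, 427 to 655 in aged Ythdf2 CTL and 580.0 to 2124 in aged Ythdf2 CKO mice, with Pf4 called in young mice (log2 fold change 1.80, adjusted p = 0.0488). The summed level of 10 granulocyte markers, 9 of them at 0 in at least 1 mouse, was 184 to 272, 263 to 371, 209 to 548 and 319 to 566 CPM in the same order of groups. Prtn3 made up most of that sum, with means of 297 against 212 CPM in young and 407 against 271 CPM in aged Ythdf2 CKO and CTL mice, while Mpo had lower means in Ythdf2 CKO, 3.69 against 10.6 CPM in young and 2.63 against 26.8 CPM in aged mice (adjusted p = 0.760 and 0.380). The part of these cell types in the results below was not tested. The libraries are bulk samples, in which fewer expressing cells and less RNA per cell cannot be told apart. The summed level of Y-linked genes was above 10 CPM in 3 of 4 young Ythdf2 CTL and 1 of 4 young Ythdf2 CKO mice. Sex as read from these genes was thus not balanced between the young genotypes, and a fit with this level as a covariate is among the alternative settings.

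Irak1 and Ticam1 were called higher in aged than in young Ythdf2 CTL mice, and Myd88 had aged genotype groups without overlap but did not pass. These genes were chosen after those results were seen, and the stretches upstream of their start sites are shown. They are RefSeq promoters on GRCm38.p6, the 250 bases before the start site, written 5′ to 3′ on the strand of the gene. Capitals mark matches, on either strand, to 4 motifs: GGGNNTTTCC (kappaB), TTCNNNGAA (GAS, the element of STAT factors), GAAANNGAAA (a form of the interferon-stimulated response element) and GGGCGG (GC box).
Myd88, minus strand, chr9:119340019-119340268: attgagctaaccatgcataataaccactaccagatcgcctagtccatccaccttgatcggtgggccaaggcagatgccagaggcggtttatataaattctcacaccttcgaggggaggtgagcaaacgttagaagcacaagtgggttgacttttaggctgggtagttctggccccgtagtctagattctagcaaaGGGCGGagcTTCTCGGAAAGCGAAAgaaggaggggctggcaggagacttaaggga
Irak1, minus strand, chrX:74023922-74024171: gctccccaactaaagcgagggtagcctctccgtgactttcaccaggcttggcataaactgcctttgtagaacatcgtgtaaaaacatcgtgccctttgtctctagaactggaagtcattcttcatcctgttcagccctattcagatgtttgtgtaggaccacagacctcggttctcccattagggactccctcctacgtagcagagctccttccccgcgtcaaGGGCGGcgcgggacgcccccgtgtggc
Ticam1, minus strand, chr17:56276768-56277017: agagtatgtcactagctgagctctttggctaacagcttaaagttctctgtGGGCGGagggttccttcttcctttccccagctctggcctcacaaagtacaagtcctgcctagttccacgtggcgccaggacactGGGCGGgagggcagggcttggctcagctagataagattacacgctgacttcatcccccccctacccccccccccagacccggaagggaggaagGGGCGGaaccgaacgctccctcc
In Myd88 the GAS and response-element matches overlap, beginning 46 and 40 bases before the start site, with a GC box at 55. Windows with the GAS letters made up 7.04% of 32536 promoters of this length, those with the response element 2.98%, those with the kappaB letters 1.4% and those with a GC box 33%. The Irak1 window held 1 GC box and the Ticam1 window 3, and neither held the other motifs. Among the members with a promoter, the kappaB letters were found in Map3k7, which is not shown, 92 bases before the start site. A match is a run of letters and says nothing of a factor at work in these cells.

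The receptor itself was present at low levels. Tlr4 (chromosome 4, 66827584 to 66930284, plus strand) had 13.9, 5.78, 16.4 and 8.95 CPM in the 4 young Ythdf2 CTL mice and 38.4, 7.5, 19.5 and 11.4 CPM in the 4 young Ythdf2 CKO mice. In aged mice it had 14.8, 10.7, 11.2 and 5.18 CPM in Ythdf2 CTL and 19.2, 13.7, 17.5, 23.3 and 11.6 CPM in Ythdf2 CKO. The groups overlapped at both ages, and the highest value belonged to a single young Ythdf2 CKO mouse, number 1. The log2 fold change for Ythdf2 CKO against Ythdf2 CTL was 0.77 with an SE of 0.486 in young mice (adjusted p = 0.841) and 0.71 with an SE of 0.427 in aged mice (adjusted p = 0.605). Without young Ythdf2 CKO mouse 1 the young estimate was 0.19, and without mice 121 and 124 the aged estimate was 0.34. The 95% interval over all young mice ran from -0.26 to 1.80, so neither no change nor a change of more than 1 log2 unit lies outside it.

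Cd14, the co-receptor that delivers LPS, was scarce and, in young mice, close to the detection floor. It was at 0 in 14 of 33 libraries. Young Ythdf2 CTL mice had 0, 0, 2.18 and 0.516 CPM and young Ythdf2 CKO mice had 2.18, 0, 0 and 2.85 CPM, too few counts to enter the fit across genes. An exact two-sided permutation test over mice of the mean log2(CPM + 1) gave a difference of 0.34 (p = 0.829, where the smallest p this design allows is 0.0286). Aged mice had 7.24, 2.06, 6.15 and 0 CPM in Ythdf2 CTL and 2.28, 1.56, 5.45, 3.03 and 2.58 CPM in Ythdf2 CKO. These ranges overlap, and the log2 fold change was -0.38 with an SE of 0.983 (adjusted p = 0.935). Leaving out aged Ythdf2 CTL mouse 65 turned that estimate to 0.11, and without mice 121 and 124 it was -0.82.

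Ly96, which encodes the LPS-binding partner MD-2 (chromosome 1, 16688051 to 16709611, plus strand), had 17.8, 18.6, 27.0 and 21.5 CPM in young Ythdf2 CTL and 10.7, 12.2, 21.8 and 12.3 CPM in young Ythdf2 CKO mice. Of the 4 young Ythdf2 CKO mice, 3 lay below every Ythdf2 CTL mouse and number 3 lay within their range. The log2 fold change was -0.57 with an SE of 0.329 (unadjusted p = 0.103, adjusted p = 0.804). Aged mice had 6.40, 4.13, 14.5 and 16.3 CPM in Ythdf2 CTL and 7.72, 5.26, 4.09, 12.1 and 13.2 CPM in Ythdf2 CKO, with both groups covering the same range (log2 fold change -0.28, SE 0.565, adjusted p = 0.911, and -0.16 without mice 121 and 124).

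Myd88, the adaptor shared by most Toll-like receptors (chromosome 9, 119335934 to 119341411, minus strand), did not separate the young mice. Its levels were 101, 70.7, 102 and 91.6 CPM in young Ythdf2 CTL and 92.2, 94.9, 68.7 and 101 CPM in young Ythdf2 CKO mice, and the log2 fold change was -0.03 with a 95% interval of -0.42 to 0.36 (adjusted p = 0.988). In aged Ythdf2 CTL mice it had 112, 99.5, 71.2 and 33.2 CPM, and in aged Ythdf2 CKO mice 131, 129, 116, 125 and 119.7 CPM. Every aged Ythdf2 CKO mouse lay above every aged Ythdf2 CTL mouse, and the Ythdf2 CKO mice were close together (124 ± 6.19 CPM, SD, n = 5, against 78.9 ± 34.9, n = 4). The log2 fold change was 0.66 with an SE of 0.283, an unadjusted p of 0.0353 and an adjusted p of 0.453, so it did not pass the test across genes. The lowest value came from the mouse labelled Ythdf2 CTL 124, and without mice 121 and 124 the estimate was 0.40 (unadjusted p = 0.05865, adjusted p = 0.4499). Exons of Myd88 overlap those of Acaa1a on the other strand over 290 bp, 11.3% of its exon length, and whether the counting used strand is not given in the sources used here.

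Tirap, the bridge between TLR4 and MyD88 (chromosome 9, 35184551 to 35200291, minus strand), varied widely between animals. It had 3.52, 6.14, 12.5 and 3.10 CPM in young Ythdf2 CTL, 2.37, 7.68, 4.02 and 6.01 in young Ythdf2 CKO, 4.62, 10.3, 22.4 and 22.4 in aged Ythdf2 CTL and 16.3, 8.28, 18.9, 5.79 and 9.03 CPM in aged Ythdf2 CKO mice. Its log2 fold changes between genotypes were -0.33 (SE 0.596) in young and -0.34 (SE 0.541) in aged mice, with adjusted p of 0.962 and 0.881. The young estimate was 0.24 without young Ythdf2 CTL mouse 3, and the aged estimate was 0.08 without mice 121 and 124.

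Ticam1, which encodes the adaptor TRIF (chromosome 17, 56269319 to 56276786, minus strand), had 0.66, 9.76, 2.03 and 3.27 CPM in young Ythdf2 CTL and 10.9, 7.13, 4.59 and 6.46 CPM in young Ythdf2 CKO mice. In aged mice it had 11, 13.6, 12.7 and 26.6 CPM in Ythdf2 CTL and 15.4, 3.90, 9.73, 4.08 and 9.46 CPM in Ythdf2 CKO. The estimates between genotypes had opposite signs at the 2 ages, 0.87 (SE 0.683, adjusted p = 0.893) in young and -0.90 (SE 0.519, adjusted p = 0.586) in aged mice. The test of the difference between these effects gave -1.79 with an SE of 0.873 (95% interval -3.60 to 0.02, unadjusted p = 0.0528, adjusted p = 0.999). The highest aged value came from the mouse labelled Ythdf2 CTL 124, and without mice 121 and 124 the aged estimate was -0.37 and the difference between ages -1.24. Counts of Ticam1 ranged from 0 to 102 per library, and the mouse labelled Ythdf2 CKO 121 had 0 counts in its first library and 31 in its second.

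**Figure D1:**
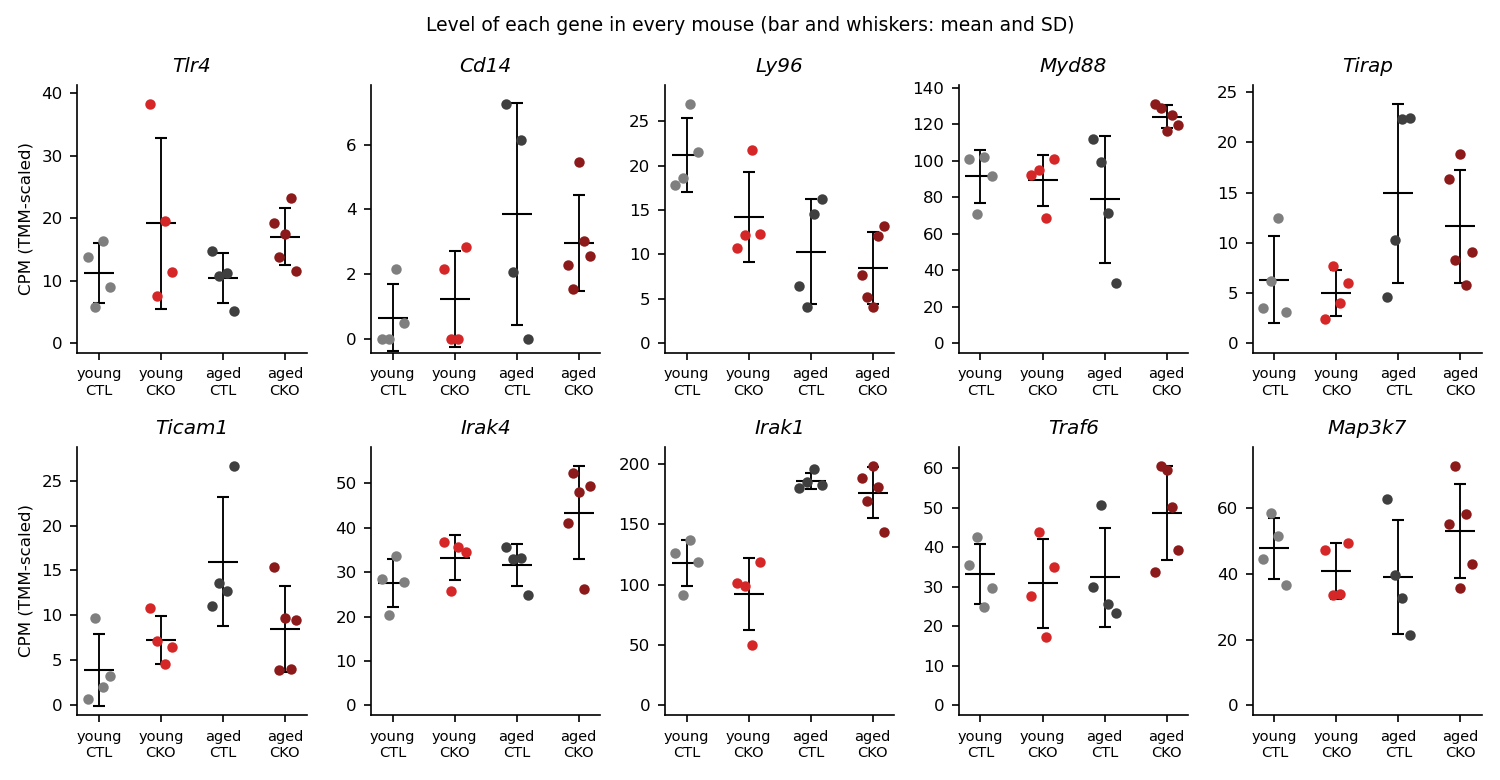
Level of each of the 10 genes in every mouse, in TMM-scaled CPM on linear axes that differ between panels, with the mean and SD of each group. Myd88 is the gene whose aged groups do not overlap (116 to 131 CPM in Ythdf2 CKO against 33.2 to 112 in Ythdf2 CTL), and Irak1 lies at 143 CPM or above in all aged mice.

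The kinases of the receptor complex were among the more abundant members. Irak4, the first kinase recruited by MyD88 (chromosome 15, 94543643 to 94581815, plus strand), had 28.4, 20.4, 33.7 and 27.7 CPM in young Ythdf2 CTL and 36.8, 25.8, 35.8 and 34.6 CPM in young Ythdf2 CKO mice. Aged Ythdf2 CTL mice had 35.8, 33.0, 33.2 and 24.8 CPM, and aged Ythdf2 CKO mice had 41.0, 52.4, 48.1, 26.2 and 49.5 CPM. Of the 5 aged Ythdf2 CKO mice, 4 lay above every aged Ythdf2 CTL mouse, and the exception was mouse 121. The Ythdf2 level of that mouse went against its label, and a link between these values was not tested. The log2 fold change was 0.27 (SE 0.245, adjusted p = 0.899) in young mice and 0.46 (SE 0.27, adjusted p = 0.589) in aged mice. Over the alternative settings, among them the fit without mice 121 and 124, the aged estimate was 0.45 to 0.49. Irak4 shares 395 bp of its exons, 7.87% of their length, with Twf1 on the other strand.

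Irak1, the substrate and partner of IRAK4 (chromosome X, 74013914 to 74023918, minus strand), had 126, 91.4, 136 and 118 CPM in young Ythdf2 CTL and 101, 99.1, 49.9 and 118 CPM in young Ythdf2 CKO mice. In aged mice it had 179.8, 185, 196 and 182 CPM in Ythdf2 CTL and 188, 169, 198, 180.3 and 143 CPM in Ythdf2 CKO. Genotypes overlapped at both ages, with log2 fold changes of -0.35 (SE 0.228, adjusted p = 0.849) in young and -0.07 (SE 0.155, adjusted p = 0.92) in aged mice. The aged interval, -0.40 to 0.26, was the narrowest of any member in a genotype comparison.

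Traf6, the ubiquitin ligase (chromosome 2, 101678429 to 101701669, plus strand), had 35.4, 42.5, 25.0 and 29.8 CPM in young Ythdf2 CTL and 27.7, 43.7, 17.2 and 34.9 CPM in young Ythdf2 CKO mice (log2 fold change -0.10, SE 0.292, adjusted p = 0.978). Aged Ythdf2 CTL mice had 29.9, 50.8, 25.5 and 23.4 CPM, and aged Ythdf2 CKO mice had 33.7, 60.5, 59.4, 50.1 and 39.1 CPM. A single aged Ythdf2 CTL mouse, number 99, lay inside the Ythdf2 CKO range, and the log2 fold change was 0.60 (SE 0.304, unadjusted p = 0.07, adjusted p = 0.526).

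Map3k7, which encodes TAK1 (chromosome 4, 31964097 to 32023467, plus strand), had 44.4, 58.5, 51.4 and 36.7 CPM in young Ythdf2 CTL and 47.3, 33.5, 33.9 and 49.3 CPM in young Ythdf2 CKO mice. It had 62.7, 39.6, 32.6 and 21.4 CPM in aged Ythdf2 CTL and 55.1, 72.8, 35.8, 58.3 and 43.2 CPM in aged Ythdf2 CKO mice. Groups overlapped at both ages, and the log2 fold changes were -0.22 (SE 0.231, adjusted p = 0.916) and 0.44 (SE 0.32, adjusted p = 0.685). Without mice 121 and 124 the aged estimate was 0.20.

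Levels of different genes were compared per length, as CPM per kb of the exons in GENCODE M21. In young Ythdf2 CTL mice the order of mean levels was Myd88 with 35.5 CPM per kb, Irak1 with 25.0, Ly96 with 20.8, Map3k7 with 7.44, Irak4 with 5.49, Traf6 with 4.21, Tlr4 with 2.02, Ticam1 with 1.31, Tirap with 1.28 and Cd14 with 0.389. Neighbours in this order overlapped over mice except at 2 places, between Ly96 and Map3k7 and between Traf6 and Tlr4. Myd88, Irak1 and Ly96 thus stood above the other kinases, and the receptor Tlr4 below them. In aged Ythdf2 CTL mice Irak1 came first with 39.4 CPM per kb, ahead of Myd88 with 30.6, and all neighbours overlapped. In Ythdf2 CKO mice of both ages Myd88 led and did not overlap Irak1, with 34.6 against 19.5 CPM per kb in young and 48.2 against 37.3 in aged mice.

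**Figure D2:**
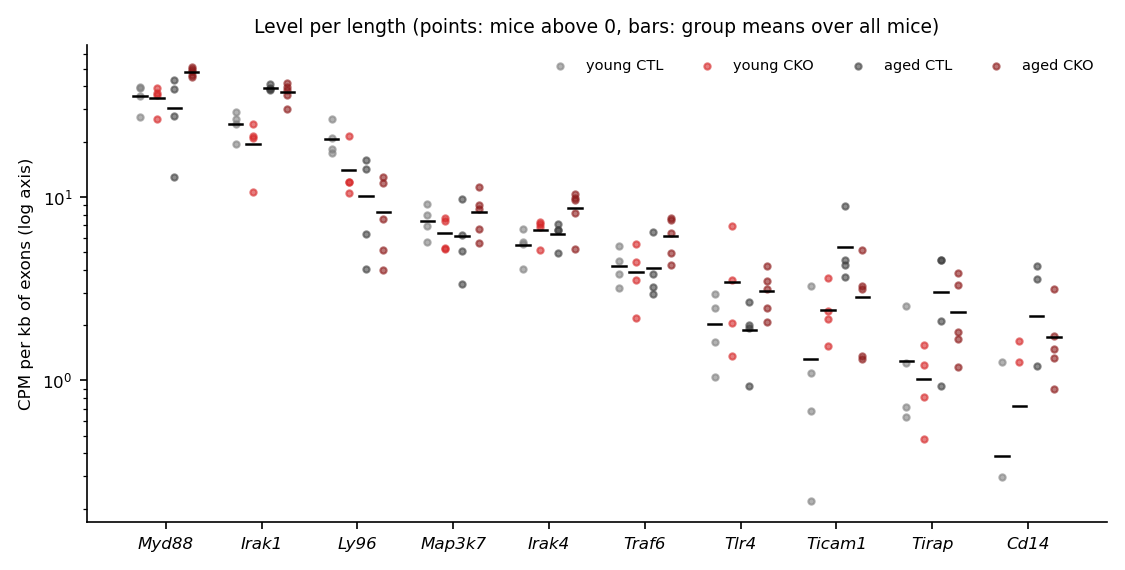
Level per kb of exons on a log axis for each gene, ordered by the young Ythdf2 CTL mean, with 1 point per mouse above 0 and a bar at the mean over all mice of a group. Myd88, Irak1 and Ly96 head the order in young Ythdf2 CTL mice, from 20.8 to 35.5 CPM per kb, and Cd14 closes it at 0.389.

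Across the young comparison, none of the 9 members tested passed the threshold of an adjusted p of 0.05 in the quasi-likelihood test of edgeR, and 0 had an unadjusted p under 0.05. The likelihood ratio test over libraries takes the libraries of a mouse as separate replicates, which they are not. That test and DESeq2 over mice also called 0 members, and 0.85% and 0.668% of all genes. Of all 11526 genes tested, 20 passed (0.174%), 15 higher and 5 lower in Ythdf2 CKO mice, and 814 had an unadjusted p under 0.05 (7.06%). Groups did not overlap for 0 members and for 550 of all genes (4.77%). The members' log2 fold changes ran from -0.57 for Ly96 to 0.87 for Ticam1, 3 positive and 6 negative, with a median of -0.10 against -0.00093 over all genes.

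In aged mice, 0 of the 10 members passed in edgeR, and DESeq2 and the library-level likelihood ratio test also called 0 members, with 0.869% and 3.73% of all genes called. The quasi-likelihood test called 0 of 11961 genes (0%), with 1208 at an unadjusted p under 0.05 (10.1%). Myd88 was the single member with an unadjusted p under 0.05, and the single member whose groups did not overlap, as for 416 genes of the table (3.48%). The members' log2 fold changes were 5 positive and 5 negative, with a median of 0.19 against -0.0033 over all genes. The members' shares, 1 of 10 by either measure, are to be read against these shares of the table.

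Single animals moved many of these estimates, none of which was called in any fit that left out 1 mouse. In young mice the range over such fits was 0.19 to 1.04 for Tlr4, -0.85 to -0.43 for Ly96, -0.13 to 0.08 for Myd88, -0.60 to 0.24 for Tirap, 0.16 to 0.39 for Irak4, -0.31 to 0.10 for Traf6 and -0.33 to -0.10 for Map3k7. Irak1 ran from -0.50 to -0.15, the latter without young Ythdf2 CKO mouse 3, whose 49.9 CPM was the lowest value. Ticam1 ran from 0.53 without young Ythdf2 CTL mouse 1, the lowest, to 1.85 without young Ythdf2 CTL mouse 2, the highest of its group. In aged mice the range was 0.47 to 0.92 for Tlr4, -0.82 to 0.11 for Cd14, -0.55 to 0.0014 for Ly96, 0.39 to 0.87 for Myd88, -0.66 to -0.09 for Tirap, 0.35 to 0.60 for Irak4, -0.12 to -0.0032 for Irak1 and 0.46 to 0.88 for Traf6. The aged estimate of Ticam1 ran from -1.23 to -0.55, the latter without mouse 124. That of Map3k7 was lowest without mouse 124, at 0.23, and highest without aged Ythdf2 CTL mouse 65, at 0.77.

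The difference in genotype effect between aged and young mice passed for 0 of the 10 members and for 0 of 12352 genes (0%), with 588 genes (4.76%) and 0 members at an unadjusted p under 0.05. DESeq2 called 0 genes and the likelihood ratio test over libraries 3 (0.0256%), none of them a member. The estimates furthest from 0 were those of Ticam1, at -1.79, and Cd14, at -1.23 with an SE of 1.84. Traf6 at 0.70 (SE 0.432), Myd88 at 0.69 (SE 0.351) and Map3k7 at 0.66 (SE 0.407) came next. Among Traf6, Myd88 and Map3k7, Myd88 had the smallest unadjusted p, 0.0613 (95% interval -0.04 to 1.42), and Ticam1 had 0.0528. Without mice 121 and 124 the estimate of Myd88 was 0.43 and that of Map3k7 0.42.

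Age was compared within each genotype, in a fit of all 17 mice. The library identifiers in the labels begin differently for young and for aged mice, without a statement of what this marks, so age and any difference between these sets of libraries cannot be told apart, and the mice of these comparisons are shared with the genotype comparisons. Single markers of other cell types also differed with age, though their lists did not move as one. Of 9 T and NK cell markers 4 were in the table, 2 of them at 0 in at least 1 mouse, and their summed level was 421 to 542 CPM in young and 179 to 350 CPM in aged Ythdf2 CTL mice, and 374 to 495 and 217 to 384 CPM in Ythdf2 CKO mice. Nkg7 made up most of that sum and was called lower with age (-0.93 in Ythdf2 CTL and -0.84 in Ythdf2 CKO mice, adjusted p = 0.0167 in both), while the estimates of the other 2 tested, Lck (0.61 and 0.99) and Klrb1c (0.91 and 1.78), were above 0 and not called. Of 7 megakaryocyte and platelet markers tested, 1 was called between Ythdf2 CTL mice, Vwf (1.80, adjusted p = 0.00477), where 2 of 7 estimates were above 0 and their median was -0.09. Between Ythdf2 CKO mice 3 of 7 were called higher, Vwf (1.48), Itga2b (1.35) and Gp9 (0.83), and 4 of 7 estimates were above 0, with a median of 0.41. Between Ythdf2 CKO mice 2 of 5 monocyte and macrophage markers tested and 1 of 4 erythroid markers tested were called lower. Of 10 HSC markers, 1 was called higher and 1 lower between Ythdf2 CKO mice, and 1 higher between Ythdf2 CTL mice. The granulocyte and B cell lists held 0 calls with age. The part of all these markers in the age results was not tested. In Ythdf2 CTL mice 2 members rose with age, Irak1 and Ticam1, where 6.7% of all genes were called higher and 8.07% lower. Irak1 was 186 ± 6.93 CPM in aged against 118 ± 19.2 CPM in young Ythdf2 CTL mice (SD, 4 mice each), and its log2 fold change was 0.65 with an SE of 0.205 (adjusted p = 0.0365). Ticam1 was 16 ± 7.18 against 3.93 ± 4.03 CPM, a log2 fold change of 2.02 with an SE of 0.654 (adjusted p = 0.0421). Ly96 was lower in every aged than in every young Ythdf2 CTL mouse but did not pass (-1.02, SE 0.468, adjusted p = 0.145). It was, with Irak1 and Ticam1, among 3 members whose groups did not overlap, as for 17.1% of all genes.

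In Ythdf2 CKO mice Irak1 again rose with age, to 176 ± 21.2 CPM (n = 5) from 92.2 ± 29.5 CPM (n = 4), a log2 fold change of 0.93 with an SE of 0.198 (adjusted p = 0.00339). It was the single member called, where 7.21% of genes were called higher and 9.34% lower, and it was called whichever of the 17 mice was left out. The likelihood ratio test over libraries, in which libraries of a mouse count as separate replicates, added Traf6 (0.69, adjusted p = 0.0424). Over mice the quasi-likelihood test did not call it (0.65, adjusted p = 0.144). Every aged Ythdf2 CKO mouse also lay above every young Ythdf2 CKO mouse in Myd88, which did not pass (0.48, SE 0.242, adjusted p = 0.191) except in the fit without the mouse labelled Ythdf2 CTL 124 (0.47, adjusted p = 0.0496). These were the 2 members without overlap, as for 20.4% of genes. Tirap had 1.21 (SE 0.573, unadjusted p = 0.0469, adjusted p = 0.159). An unadjusted p under 0.05 was found for 3 of 10 members and for 3723 of 12352 genes. Ticam1 did not pass in Ythdf2 CKO mice, with 8.52 ± 4.78 CPM in aged against 7.26 ± 2.64 CPM in young mice (0.23, SE 0.598, adjusted p = 0.835, and 0.41 without mice 121 and 124). The difference between the age effects in the 2 genotypes is the same term as the genotype by age test above, which Ticam1 did not pass.

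The age calls in Ythdf2 CTL mice depended on single animals and libraries. Ticam1 was not called without mice 121 and 124 (1.65, adjusted p = 0.0875), and Irak1 was not called with the low library of mouse 99 kept (0.59, adjusted p = 0.0602). Irak1 remained called when 11 of the 17 mice were left out in turn and Ticam1 when 7 were, with estimates of 0.54 to 0.72 and of 1.63 to 2.98. Irak1 was not called without young Ythdf2 CTL mouse 1, 2, 3 or 4, or aged Ythdf2 CTL mouse 99 or 114. The largest adjusted p of Irak1 was 0.109, without young Ythdf2 CTL mouse 2. Ticam1 was not called without young Ythdf2 CTL mouse 1, 3 or 4, aged Ythdf2 CTL mouse 99, 114 or 124, young Ythdf2 CKO mouse 2 or 4, or aged Ythdf2 CKO mouse 94 or 122. Irak1 is X-linked, and the summed level of 4 Y-linked genes ran from 0 to 197 CPM or more in every group, so both sexes were present throughout but not in equal shares. That level was above 10 CPM in 3 of 4 young Ythdf2 CTL mice, 1 of 4 young Ythdf2 CKO, 1 of 4 aged Ythdf2 CTL and 1 of 5 aged Ythdf2 CKO mice. With that level as a covariate the age effect on Irak1 was 0.70 in Ythdf2 CTL (adjusted p = 0.0407) and 0.94 in Ythdf2 CKO mice (adjusted p = 0.00343).

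**Figure D3:**
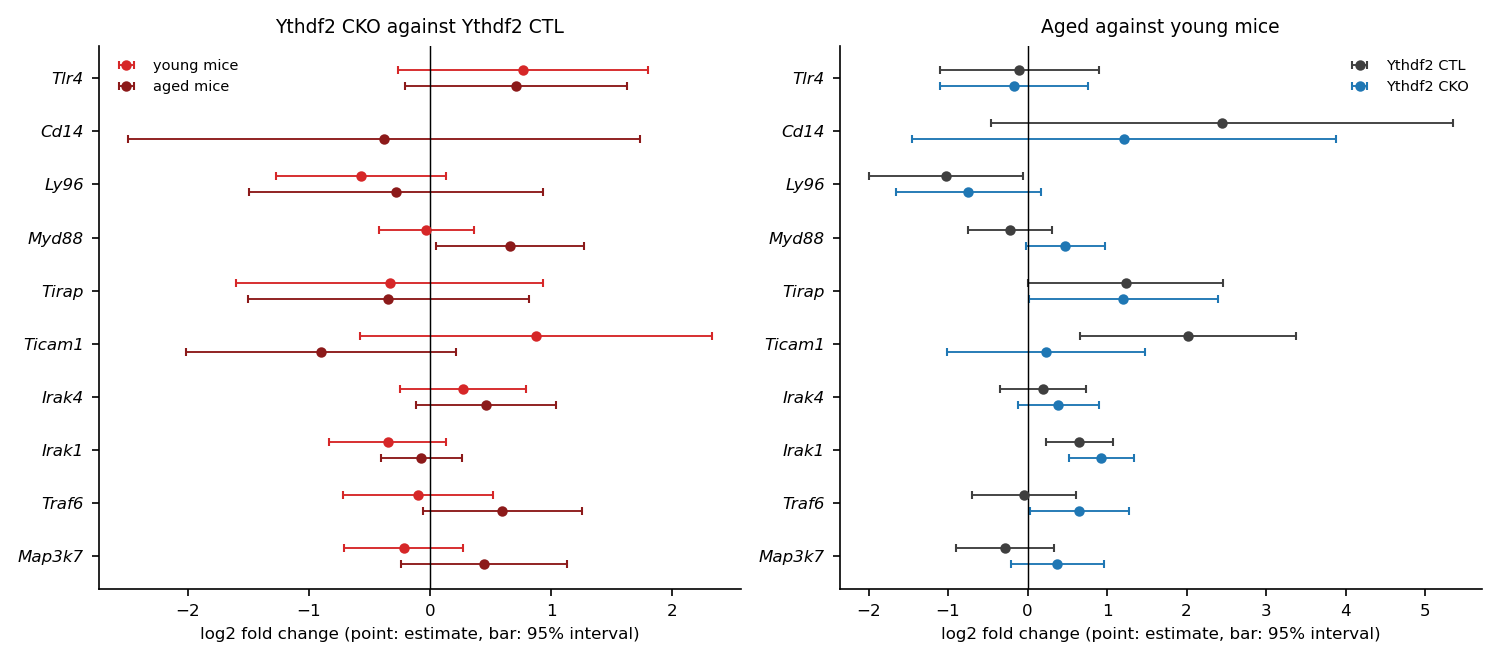
Log2 fold change of each gene with its 95% interval, for Ythdf2 CKO against Ythdf2 CTL in young and aged mice (left) and for aged against young mice in each genotype (right). Cd14 has no young genotype estimate because it did not enter that fit, and Irak1 is the gene whose interval lies above 0 in both age comparisons by the widest margin.

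Members varied together only in part. On log2 CPM centred within each group, over 17 mice, Myd88 and Map3k7 had a Pearson r of 0.66 and Tlr4 and Myd88 one of 0.45. The genes of a mouse come from the same libraries, and depth differed between mice (2218618 to 10125624 counts). The part of library preparation and depth in these values was not tested. Ly96 ran against Traf6 (r = -0.73) and against Myd88 (r = -0.56), while Tlr4 and its partner Ly96 had an r of -0.13. The genes most like Tlr4 among 9433 genes with at least 10 counts in every mouse were Pcmtd1 (r = 0.88), Rassf5 (r = 0.81) and Peg13 (r = 0.80). For Myd88, chosen after its values were seen, they were Sfxn3 (r = 0.95), Dpf2 (r = 0.95) and Ddost (r = 0.95), and the low value of the mouse labelled Ythdf2 CTL 124 enters these figures.

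The rest of the pathway was read from 8 lists with 72 genes, of which 59 were in the table. In young mice 49 were tested and 0 passed in edgeR, with 3 (6.12%) at an unadjusted p under 0.05, where the share of all genes was 7.06%, and 0 called by DESeq2 or by the likelihood ratio test over libraries. In aged mice 50 were tested and 0 passed, with 6 (12%) at an unadjusted p under 0.05, where the share of all genes was 10.1%. DESeq2 called 1 of 50, Rela (0.869% of all genes), and the likelihood ratio test over libraries called 2 of 48, Rela and Map2k3 (3.73% of all genes). The interaction was passed by 0 of 52, with 1 at an unadjusted p under 0.05 and 0 called by the other tools.

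Upstream of the receptor, 4 of 5 genes for LPS transfer and receptor folding were tested at each age. Hsp90b1, the chaperone gp96 needed to fold Toll-like receptors, had the smallest p, with -0.14 (SE 0.159) in young and -0.43 (SE 0.231, adjusted p = 0.543) in aged mice, or -0.27 without mice 121 and 124. The young estimate was -0.32 without young Ythdf2 CKO mouse 1 and -0.04 without young Ythdf2 CKO mouse 3. Of 11 other Toll-like receptors, 6 were in the table and 3 were tested. The smallest p belonged to Tlr2, the receptor for bacterial lipopeptides, with 0.60 (SE 0.583) in young mice, or -0.16 without young Ythdf2 CKO mouse 1, and 0.20 (SE 0.448) in aged mice, or 0.03 without mice 121 and 124. Ticam2, the adaptor that links TRIF to TLR4, had the smaller p of the 2 other adaptors and IRAKs tested, with 0.25 (SE 0.417) and -0.40 (SE 0.569). The young estimate was 0.04 without young Ythdf2 CTL mouse 4, and the aged one was 0.32 without aged Ythdf2 CTL mouse 114.

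Among 9 tested partners of TRAF6 and TAK1, Ripk1, a kinase that TRIF engages, was 70.7 ± 22.4 CPM in young Ythdf2 CKO against 43.9 ± 5.40 CPM in young Ythdf2 CTL mice (log2 fold change 0.69, SE 0.246, unadjusted p = 0.013, adjusted p = 0.512). In aged mice the smallest p was that of Tab1, a subunit of the TAK1 complex, at 0.81 (SE 0.412, adjusted p = 0.526), or 0.40 without mice 121 and 124 and 1.36 without aged Ythdf2 CTL mouse 114. Of 13 IKK, TBK1 and MAP kinase genes, Mapk8, which encodes JNK1, was 8.86 ± 3.41 CPM in young Ythdf2 CKO against 20.7 ± 15.2 CPM in young Ythdf2 CTL mice (-1.22, SE 0.468, adjusted p = 0.55). Young Ythdf2 CTL mouse 2 had 43.4 CPM and the other young Ythdf2 CTL mice 11 to 14.8 CPM, and without it the estimate was -0.56. In aged mice Map2k3, an activator of p38, was 182 ± 22.6 against 125 ± 33.5 CPM (0.55, SE 0.203, unadjusted p = 0.0167, adjusted p = 0.398), or 0.37 without mice 121 and 124.

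Rela, the p65 subunit of NF-kappaB, had the smallest p of the 4 end-point transcription factors at both ages. Aged Ythdf2 CTL mice had 107, 118, 129 and 110 CPM and aged Ythdf2 CKO mice had 162, 159, 167, 176 and 178 CPM, without overlap. The log2 fold change was 0.55 with an SE of 0.151, an unadjusted p of 0.00285 and an adjusted p of 0.312. In young mice it was 0.37 (SE 0.201, adjusted p = 0.771). Without mice 121 and 124 the aged value was 0.50 (unadjusted p = 0.00894, adjusted p = 0.243).

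Among 10 negative regulators, Socs1, a feedback inhibitor of cytokine signaling, had the smallest p in young mice (-0.42, SE 0.331, adjusted p = 0.894). Without young Ythdf2 CTL mouse 4 the Socs1 estimate was -0.22. The smallest p in aged mice was that of Cyld, a deubiquitinase (-0.45, SE 0.198, unadjusted p = 0.041, adjusted p = 0.473). Of 16 LPS response genes, 10 were in the table, 4 were tested in young and 5 in aged mice, and the cytokines Tnf and Il6 had too few counts to be tested. In young mice the smallest p was that of the chemokine Ccl3, with 11.9, 8.96, 31.6 and 4.81 CPM in Ythdf2 CKO and 5.28, 3.25, 2.47 and 6.02 CPM in Ythdf2 CTL mice (1.75, SE 0.575, unadjusted p = 0.00794, adjusted p = 0.442). The value of 31.6 CPM belonged to young Ythdf2 CKO mouse 3, without which the estimate was 1.01. In aged mice it was Il1b, with 2.53, 4.21, 3.01, 1.63 and 5.84 CPM in aged Ythdf2 CKO and 0.931, 0, 0.734 and 0 CPM in aged Ythdf2 CTL mice. Il1b is among the 6 genes counted above, but it entered the aged fit through the Ythdf2 CKO mice alone, 5 of 5 of which reached the count filter against 0 of 4 Ythdf2 CTL mice, so these values are a description.

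**Figure D4:**
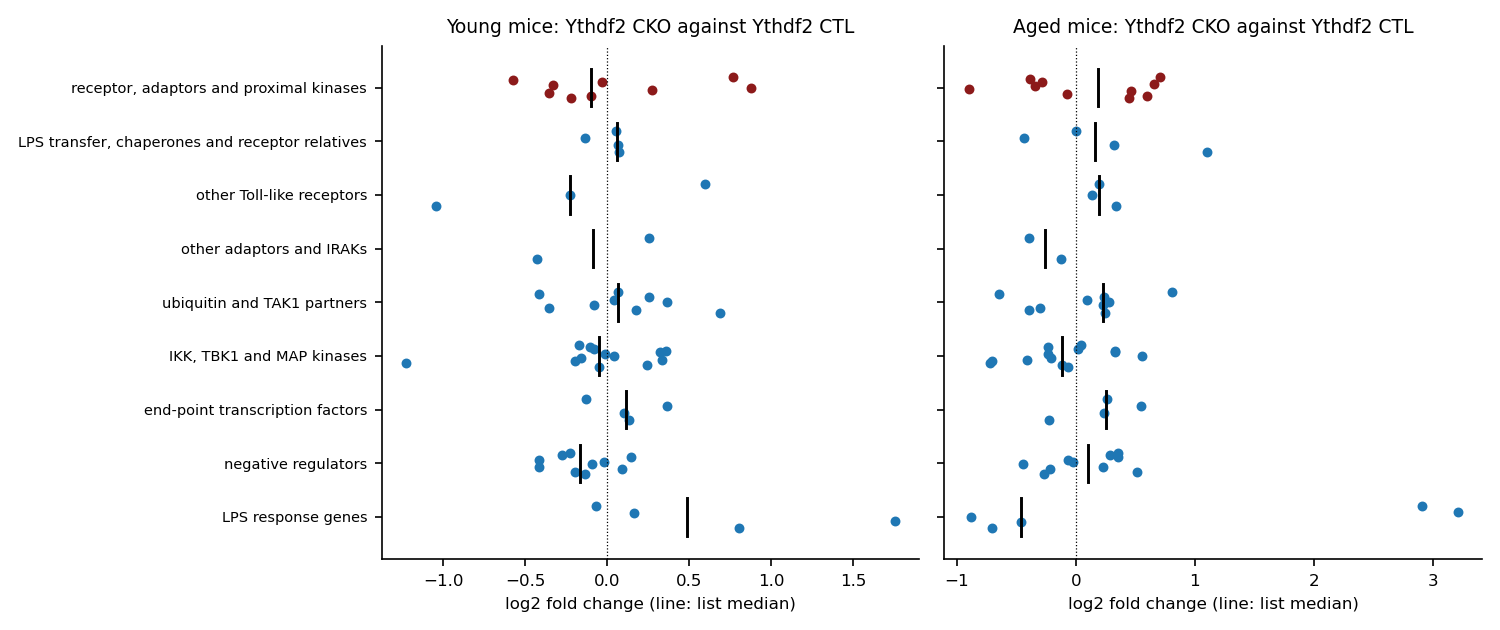
Log2 fold change of every tested gene for Ythdf2 CKO against Ythdf2 CTL, by list, in young (left) and aged mice (right), with a line at each list's median and horizontal scales that differ. The 10 receptor, adaptor and kinase genes have medians of -0.10 over the 9 tested in young and 0.19 over all 10 in aged mice, and no point in either panel passed the adjusted threshold.

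With age, 3 list genes were called higher (5.77%) and 1 lower (1.92%) in Ythdf2 CTL mice, of 52 tested, where 6.7% and 8.07% of all genes were. Rela rose by 0.72 (SE 0.175, adjusted p = 0.00936) and Ripk1 by 1.01 (SE 0.247, adjusted p = 0.01). Ptgs2, which encodes the prostaglandin synthase COX-2, was the third, with 0, 10.3, 11 and 6.03 CPM in aged against 0, 0, 0.145 and 0 CPM in young mice, the young values all under the floor. It passed the count filter through aged mice alone, so its call is a description. Ube2n, the ubiquitin-conjugating enzyme used by TRAF6, fell to 83.4 ± 20.4 from 131 ± 19.4 CPM (log2 fold change -0.65, SE 0.182, adjusted p = 0.0219). In Ythdf2 CKO mice 6 list genes rose (11.5%) and 1 fell (1.92%), where 7.21% of all genes were called higher and 9.34% lower. The rises were those of Rela (0.90, SE 0.167), Nfkb1, the p50 subunit (0.80, adjusted p = 0.00472), Map2k3 (0.69, SE 0.174), and the negative regulators Tollip (1.2, adjusted p = 0.0163), Sigirr (0.66, SE 0.185) and Dusp1 (1.26, SE 0.34), and Ube2n fell by 0.60 (SE 0.171). Dusp1 had 1797 CPM in the mouse labelled Ythdf2 CKO 121 and 479 to 836 CPM in the other aged Ythdf2 CKO mice, and it was not called without mouse 121 (0.79, adjusted p = 0.0555) or young Ythdf2 CKO mouse 2 (1.07, adjusted p = 0.0635). Other calls were lost without a single mouse for Sigirr (young Ythdf2 CKO mouse 2 or 3), for Ube2n (young Ythdf2 CKO mouse 3 or, between Ythdf2 CTL mice, young mouse 4 or aged mouse 99) and for Ptgs2 (young Ythdf2 CTL mouse 4).

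**Figure D5:**
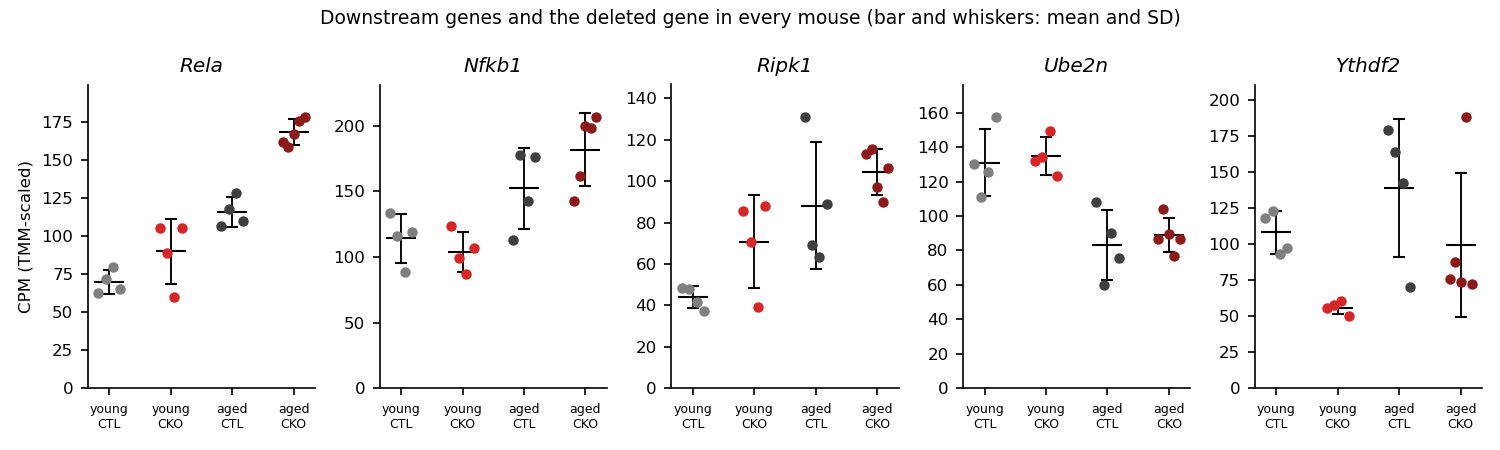
Level of Rela, Nfkb1, Ripk1, Ube2n and Ythdf2 in every mouse, in TMM-scaled CPM on linear axes from 0, with the mean and SD of each group. Rela has 159 to 178 CPM in aged Ythdf2 CKO and 107 to 129 CPM in aged Ythdf2 CTL mice, and in the Ythdf2 panel mouse 121 lies above every aged Ythdf2 CTL mouse and mouse 124 below every aged Ythdf2 CKO mouse.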

How the data were processed

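HSCs of 17 mice were profiled in 34 SMART-Seq2 libraries of 100 cells. Per the labels and the study's methods, the authors aligned reads to GRCm38 (mm10) with HISAT2 and counted them per gene with Rsubread, and the deposited values are raw counts without normalization. The annotation, use of strand and treatment of multi-mapping reads are not given in the sources used here. The second library of aged Ythdf2 CTL mouse 99 was left out because the series' design text sets it aside for its low counts, and libraries were summed per mouse. Total counts per library used were 1859784 to 7784627.

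Counts were tested in R 4.3.3 with edgeR 4.0.16 (filterByExpr with minimum count 10 and minimum total 15, TMM, quasi-likelihood test, Benjamini-Hochberg adjustment over all genes tested, threshold 0.05). The ages were fitted separately for the genotype comparisons, and the interaction and the age comparisons used a single fit of 17 mice. The comparison of aged with young Ythdf2 CKO mice was added after the Ythdf2 CTL values were seen. The SE was obtained as the size of the log2 fold change over the root of the F statistic, and 95% intervals use the t distribution with the degrees of freedom of the fit. CPM in the text are scaled over all 17 mice. The method was run on simulated data with known changes. The share of these that it recovered is not given here, so that run does not show how large a change the comparisons could miss. Samples of a group are separate mice, and libraries of a mouse differed by more than sampling noise (chi-square over degrees of freedom 10.2 or more).

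Named are all 10 members, Ythdf2, every other pathway gene called in a genotype comparison or the interaction, otherwise the gene with the smallest p of each list at each age, and the 3 genes most like Tlr4. Genes most like Myd88 and the single marker genes with values were named after these were seen. List genes named for an age comparison were those called in it. Alternatives were DESeq2 1.42.0, its size factors in edgeR, the likelihood ratio test over libraries, no filter, a replicate block, a Y-linked covariate, a single fit, the low library kept, mice 121 and 124 left out, and the removal of each mouse in turn. The members and lists were chosen with earlier results of these data known. RefSeq promoters matched 7 of the 10 members.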

Additional observations from a re-analysis of the deposited data

Results flagged for a closer look

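In groups of 4 or 5 mice, a value was singled out where its gap to the nearest other mouse exceeded Dixon's 95% critical value. Of 44 groups examined for the 10 genes and Ythdf2, 3 held such a value, where chance gives about 2.2. Ly96 was 21.8 CPM in young Ythdf2 CKO mouse 3, with the next mouse at 12.3 CPM. Ticam1 was 26.6 CPM in the mouse labelled Ythdf2 CTL 124, with the next aged Ythdf2 CTL mouse at 13.6 CPM. Ythdf2 was 188 CPM in the mouse labelled Ythdf2 CKO 121, with the next aged Ythdf2 CKO mouse at 87.8 CPM.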

How the results depend on the processing

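No member passed in a genotype comparison or in the interaction under any of these settings, and of 729 values under planned or added settings 693 kept their direction and their side of the threshold. Counts of genes called in young mice, 20 as reported, were 90 in the likelihood ratio test over libraries, 77 in DESeq2, 9 with the Y-linked covariate and 1 with all 17 mice in a single fit. In aged mice, with 0 as reported, they were 420, 104 and, in a single fit, 5, and 40 without mice 121 and 124. The interaction, with 0, gave 3 in the likelihood ratio test over libraries and 15 without mice 121 and 124. The age comparison in Ythdf2 CKO mice gave 3112 in the likelihood ratio test against 2045, with 2 members called against 1, Traf6 being added. Members called between aged and young Ythdf2 CTL mice fell from 2 to 1 with the low library of mouse 99 kept, when Irak1 was 0.595 (adjusted p = 0.0602), and to 1 without mice 121 and 124, when Ticam1 was 1.65 (adjusted p = 0.0875). Ythdf2 in young mice kept its direction but not its call with the Y-linked covariate (adjusted p = 0.176), the replicate block by mouse number (0.1281) or all 17 mice in a single fit (0.8038).

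Mouse numbers shared by young Ythdf2 CTL and Ythdf2 CKO mice did not pair them: deviations of same-numbered mice correlated at 0.0648, -0.0424, 0.00072 and -0.0801, and the replicate block by mouse number called 14 genes and 0 members. A replicate block by library letter, over libraries, called 50 genes in young and 40 in aged mice and 0 members.

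Some directions turned, and the cause was not tested. With the Y-linked covariate, Hsp90b1 in young mice became 0.0132, and Tlr4 became 0.25 in the Ythdf2 CTL and 0.00668 in the Ythdf2 CKO age comparison. Without mice 121 and 124, Tirap became 0.0758 in aged mice and 0.413 in the interaction, Ythdf2 -0.112 in the interaction, and Tlr4, Myd88 and Traf6 became 0.128, 0.0422 and 0.0784 between aged and young Ythdf2 CTL mice.

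Leaving out each mouse in turn turned the sign, the call or, for counts, the size by over 1.5 times in 104 of 1207 values. In young mice, genes called ranged from 0 to 18, Myd88 from -0.132 to 0.0768, Tirap from -0.603 to 0.241, Traf6 from -0.31 to 0.101, Tlr2 from -0.157 to 0.949 and Cd14, by the difference of mean log2(CPM + 1), from -0.0115 to 0.703. In aged mice, genes called ranged from 0 to 16, the highest without mouse 121, Cd14 from -0.817 to 0.108, Ly96 from -0.547 to 0.00136 and Ticam2 from -0.664 to 0.316. For the interaction, genes called ranged from 0 to 2, Tlr4 from -0.329 to 0.519 and Tirap from -0.603 to 0.249. Between aged and young Ythdf2 CTL mice, genes called ranged from 896 to 2048, members called from 0 to 2, Tlr4 from -0.336 to 0.127, Myd88 from -0.453 to 0.0285 and Traf6 from -0.339 to 0.0876. Between aged and young Ythdf2 CKO mice, genes called ranged from 1183 to 2655, members called from 1 to 2, Tlr4 from -0.433 to 0.407 and Ticam1 from -0.11 to 0.481. Cd14, Ticam1 and Tirap were at 0 in 14, 3 and 1 of 33 libraries, and the part of depth in these zeros was not tested.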
